A study of Mus musculus with 2 samples.

Results

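The 31 genes described here cover cholesterol synthesis from acetyl-CoA to the finished sterol, its control by the transcription factor SREBP2, and the uptake, intracellular transport, esterification and efflux of cholesterol. They were chosen by symbol from the pathway and matched by Ensembl identifier to the deposited tables. All 31 were found among 43346 Ensembl genes, with 140 annotated transcripts. Polyadenylated RNA had been sequenced from the liver of 1 female mouse of the inbred strain C57BL/6J, aged 10 weeks. Its RNA is represented by 2 libraries, which the labels number as technical replicates 1 and 2 of a single biological replicate. Library 1 is technical replicate 1, and library 2 is technical replicate 2, which the labels place in May 2015 and outside the original publication. The labels name no treatment, diet or genetic change, and both libraries form 1 group, so the data answer how abundant each gene was in this liver and how far 2 libraries of 1 animal differed. Every SD below is over n = 2 technical libraries and holds no variation between animals.

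Hepatocytes build cholesterol from acetyl-CoA by way of mevalonate, isoprenoid units, squalene and lanosterol. When sterols in the endoplasmic reticulum run low, SCAP escorts SREBP2 to the Golgi, where proteases release the part that activates genes of the pathway, and INSIG proteins hold the SCAP-SREBP2 complex back when sterols are plentiful. The liver also takes up cholesterol from lipoproteins through surface receptors, stores it as esters, and passes it to high-density lipoprotein particles.

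The gene tables summed to 23309905 expected counts (estimated reads per gene) in library 1 and 19525500 in library 2. Mitochondrially encoded transcripts took 40.7% of all TPM (the deposited length-normalised relative abundance) in library 1 and 14.9% in library 2, which lowers the TPM of every nuclear gene in library 1. The 7 hepatocyte markers summed to 28080 and 66121 TPM, most of it Alb (22690 and 49848 TPM), and Apob went the other way (1909 and 1383 TPM, called lower). Markers of Kupffer cells summed to 68.8 and 165 TPM, of sinusoidal endothelium to 30.1 and 103, of stellate cells to 171 and 277, and of bile duct to 47.8 and 63.2. By the calls defined below, 3 of 6 Kupffer cell markers were higher in library 2 and 1 was lower (Vsig4). Of 6 stellate cell markers, 3 were higher and 1 was lower (Lrat). Among 6 endothelial markers 2 were higher, as were 2 of 5 bile duct markers, with none lower in either list. Of the 7 hepatocyte markers, 2 were higher and 1 was lower. Over all tested genes, 32.6% were higher and 23.6% lower. The adrenal markers Cyp11a1, Cyp11b1 and Mc2r and the pancreatic markers Prss1 and Cpa1 were at 0 in both libraries, while Cela1 read 0.86 and 8.28 TPM. All 4 adipose markers stayed below 1 TPM, and of 3 matched intestinal markers Fabp2 read 70.7 and 80.4 TPM with Lct at 0. For the levels in this liver, the number of cells of a type and the RNA per cell cannot be told apart in bulk tissue. Both libraries are labelled as technical replicates of this 1 liver, and the part of these cell types in the values below was not tested.

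The pathway was expressed along its whole length in this liver. In both libraries, 29 of the 31 genes reached 1 TPM, against 39.4% of 21461 nuclear protein-coding genes, and Mvk and Mvd fell short in library 1 only. The median level of the 31 genes was 4.81 on the log2(TPM + 0.1) scale in library 1 and 6.17 in library 2 (mean 5.49 ± 0.97, SD, n = 2). Nuclear protein-coding genes above 0 TPM had medians of 0.73 and 2.19 on that scale. Together the 31 genes took 0.637% of nuclear protein-coding TPM in library 1 and 0.525% in library 2.

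Sc5d, which introduces a late double bond into the sterol ring, was the highest by mean, with 391.87 TPM in library 1 and 374.08 in library 2 (383 ± 12.6, SD, n = 2). Insig2, a membrane anchor that retains SCAP, followed with 329.73 and 350.28 TPM (340 ± 14.5). Hmgcs1, the cytosolic HMG-CoA synthase at the entry to the mevalonate route, read 352.28 and 298.91 TPM (326 ± 37.7). These 3 genes lay at or above the 97.5th percentile of expressed nuclear protein-coding genes in each library, but the order of Hmgcs1 and Insig2 differed between the libraries. Soat1, the cholesterol acyltransferase of many tissues, was the lowest by mean, at 1.13 TPM in both libraries. The order of the other genes depended on the library. Lcat, the plasma enzyme that esterifies cholesterol on lipoproteins, ranked first in library 2 and 10th in library 1. Across the 31 genes, log2 TPM in the 2 libraries had a Pearson r of 0.687 and a Spearman rho of 0.710. Over 15294 nuclear protein-coding genes above 0 TPM the values were 0.876 and 0.867. Both are descriptions across genes of the same 2 libraries.

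**Figure D1:**
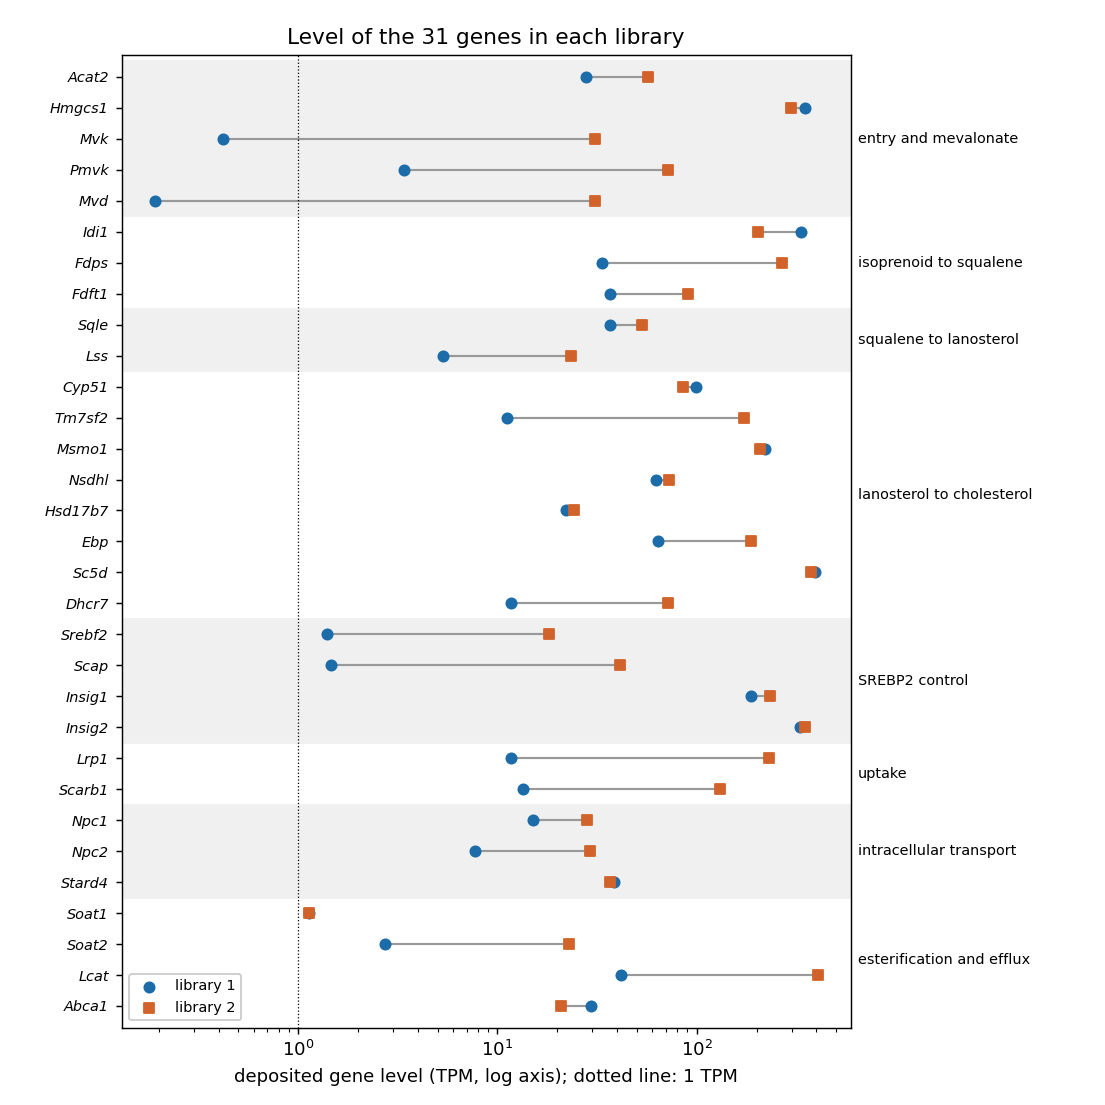
Deposited TPM (x axis, log scale) of the 31 genes (y axis, in pathway order with roles at the right) in library 1 (circles) and library 2 (squares), 1 value per library with no error bar. Sc5d, Insig2 and Hmgcs1 sit near the right edge with both symbols close together, the circle of Soat1 is hidden under its square at 1.13 TPM, and Mvk and Mvd have the longest lines, from 0.42 and 0.19 TPM to 30.75 and 30.93 TPM.

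The 2 libraries of the same liver disagreed on much of the pathway. After TMM scaling of the rounded counts, 13 of the 31 genes were higher in library 2 and 6 were lower, where a call needed a log2 fold of 1 or more in either direction and an adjusted p under 0.05 in a two-sided exact binomial test (Benjamini-Hochberg over 12728 genes). Over all genes tested, 32.6% were higher and 23.6% lower. The median log2 fold of library 2 over library 1 was 0.41 for the 31 genes and 0.04 for all genes tested. The test sets the reads of 2 libraries against each other, not 2 conditions, and the intervals below hold only the error of counting. As deposited TPM, 23 of the 31 genes were higher in library 2, and 17 were higher when TPM was rescaled to the sum over nuclear protein-coding genes. Neither count was made over all genes, so neither is a result about this pathway. The median level of nuclear protein-coding genes as deposited also differed, at 0.73 in library 1 and 2.19 in library 2 on the log2(TPM + 0.1) scale. Under total-count scaling, which shifts log2 folds up by 0.58 (slightly less at low counts), 15 of the 31 were higher (41.8% of all genes) and 1 was lower (7.46% of all genes).

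The folds ran with the base composition of the transcripts. GC content is the share of G and C bases, averaged here over a gene's annotated transcripts without weights. All 10 genes with a GC content of 54% or more were higher in library 2, with log2 folds from 2.17 to 6.33. Of the genes tested in that GC class, 84.0% were higher. Of the 6 genes under 46% GC, none was higher and 4 were lower, where 69.8% of tested genes in the class were lower. The correlation of log2 fold and GC content was r = 0.932 and rho = 0.933 across the 31 genes, and r = 0.818 and rho = 0.868 across 12694 tested genes with a GC value, all from the same 2 libraries. The trend of fold with GC content was drawn as a loess curve over the tested nuclear genes with a GC value. When it was subtracted, 6 genes were higher (9.73% of all genes) and 1 was lower (10.3% of all genes). The 6 were Mvk, Pmvk, Mvd, Fdps, Ebp and Lrp1, and the 1 was Abca1. Library and any difference in date cannot be told apart in this design, and the source of the trend with base composition was not tested.

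**Figure D2:**
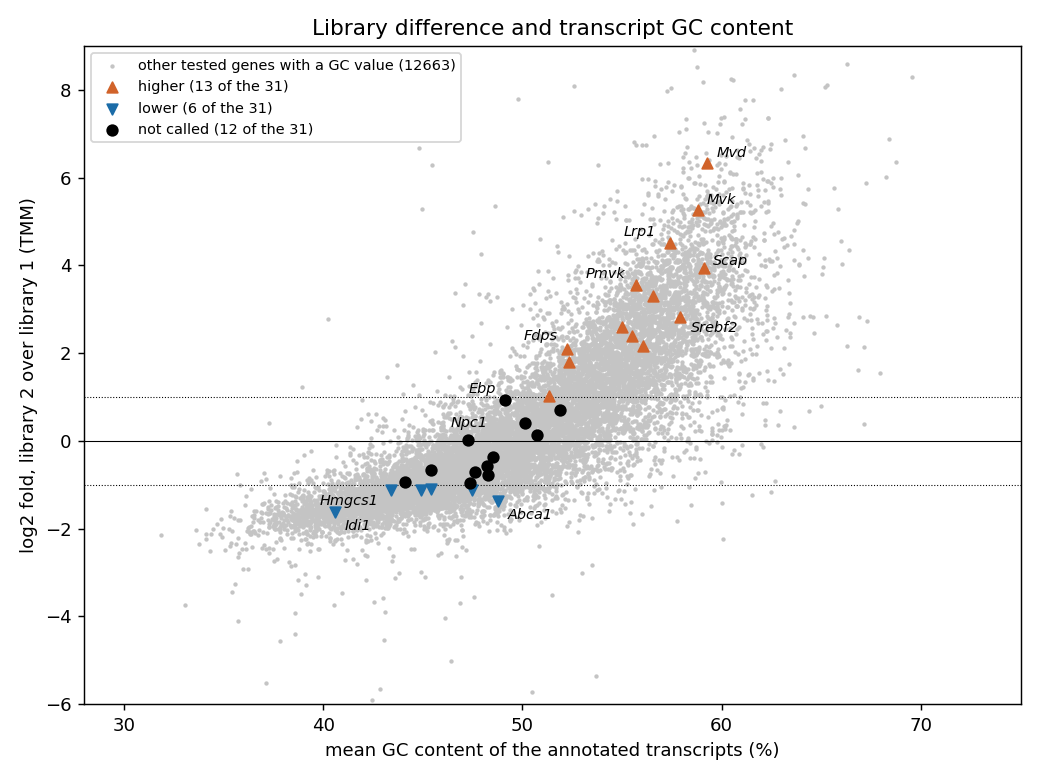
Log2 fold of library 2 over library 1 after TMM scaling (y axis) against mean transcript GC content in percent (x axis) for 12663 other tested genes (grey) and the 31 genes (triangles up for higher, triangles down for lower, black circles for not called), with dotted lines at a log2 fold of 1 in either direction. The axes leave out 19 genes with more extreme values. The 31 genes follow the rising band of the grey points, from Idi1 at 40.6% GC and a log2 fold of -1.62 to Mvd at 59.3% GC and 6.33.

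Coding sequence is printed for the 2 genes with the largest folds in each direction. Each line gives 100 bases from the middle of the longest coding exon of the leading annotated transcript on GRCm38, 5′ to 3′ on the gene's strand, with G and C in capitals. Mvd and Mvk had the largest folds upward, and Idi1 and Abca1 the largest downward. Abca1 has a GC content of 48.8%, near the median of 50.1% over the 31 genes. The windows hold 54% (Mvd), 68% (Mvk), 38% (Idi1) and 45% (Abca1) G and C.
Mvd (chr8:122437069-122437168, minus strand): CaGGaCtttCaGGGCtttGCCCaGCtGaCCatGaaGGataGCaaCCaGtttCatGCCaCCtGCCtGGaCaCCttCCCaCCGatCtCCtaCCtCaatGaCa
Mvk (chr5:114450733-114450832, plus strand): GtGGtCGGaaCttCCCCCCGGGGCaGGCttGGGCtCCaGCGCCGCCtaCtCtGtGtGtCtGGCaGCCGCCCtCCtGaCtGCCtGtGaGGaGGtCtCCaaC
Idi1 (chr13:8890425-8890524, plus strand): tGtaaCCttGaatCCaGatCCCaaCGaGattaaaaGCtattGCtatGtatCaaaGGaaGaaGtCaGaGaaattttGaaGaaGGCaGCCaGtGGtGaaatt
Abca1 (chr4:53035408-53035507, minus strand): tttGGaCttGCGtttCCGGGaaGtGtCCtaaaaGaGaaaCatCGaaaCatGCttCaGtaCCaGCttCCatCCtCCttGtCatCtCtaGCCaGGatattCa

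The mevalonate steps held the widest spread between the libraries. Of the 5 genes from acetyl-CoA to isopentenyl diphosphate, 3 were higher in library 2, 1 was lower and 1 was not called. Mvk, mevalonate kinase (ENSMUSG00000041939.10, chromosome 5, 114444269 to 114460591, plus strand), had 12 counts in library 1 and 600 in library 2, or 0.42 and 30.75 TPM. Its log2 fold was 5.27 (95% counting interval 4.51 to 6.28, adjusted p = 4.24e-132, exact binomial test). Mvd, mevalonate diphosphate decarboxylase (ENSMUSG00000006517.4, chromosome 8, 122433601 to 122443422, minus strand), had 7 counts and 751 counts, or 0.19 and 30.93 TPM. Its log2 fold was 6.33 (interval 5.37 to 7.74, adjusted p = 4.99e-177, exact binomial test). Pmvk, phosphomevalonate kinase, read 3.40 and 72.03 TPM, with a log2 fold of 3.55. These 3 genes have GC contents of 58.8%, 59.3% and 55.7%, and after the GC curve their log2 folds were 2.05, 2.97 and 1.48. Mvk and Mvd were thus near the detection limit in 1 library and at the 83.4th and 83.5th percentile of expressed genes in the other.

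The other 2 genes of the mevalonate steps differed less. Hmgcs1 (chromosome 13, 119690379 to 119708260, plus strand), with 24489 and 14046 counts, was called lower in library 2 at a log2 fold of -1.12. Subtracting the GC curve turned its fold to 0.05, and scaling by total counts gave -0.55, with no call in either case. Acat2, the cytosolic thiolase that joins acetyl-CoA units, read 27.86 and 56.95 TPM with a log2 fold of 0.13, which turned to -0.16 after the GC curve. Acat2 shares 44.2% of its 31-base words with its paralog Acat3, which read 135.23 and 287.46 TPM, so some reads may fit both genes. The deposited posterior error (1 standard deviation) of the Acat2 count was 0.68% of its mean within library 1 and 1.22% within library 2. On the opposite strand, 13.4% of its words match Tcp1, and the strand setting is not given in the sources used here.

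The isoprenoid enzymes went in different directions. Idi1, the isomerase that makes dimethylallyl diphosphate, read 334.00 and 203.30 TPM, and its log2 fold of -1.62 was the lowest of the 31. It has the lowest GC content of the genes, 40.6%, and was not called after the GC curve (log2 fold -0.10). Fdps, farnesyl diphosphate synthase, read 33.68 and 267.50 TPM, with a log2 fold of 2.10 before and 1.32 after the curve. Fdps shares 72.6% of its words with other genes, chiefly the processed pseudogenes Gm3571, Gm5873 and Gm8163, but these held at most 15.5 counts. Idi1 shares 18.4% of its words with the pseudogene Gm13502, which was given 549.6 counts in library 1 and 45.5 in library 2. Fdft1, squalene synthase, read 36.58 and 90.24 TPM with a log2 fold of 0.41 and was not called. A stretch of Fdft1 holding 26.2% of its words lies opposite Ctsb, and the strand setting of the counting is not given in the sources used here.

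Neither enzyme between squalene and lanosterol was called. Sqle, squalene epoxidase, read 36.92 and 53.29 TPM, with a log2 fold of -0.36 that became 0.22 under total-count scaling. Lss, lanosterol synthase, read 5.32 and 23.28 TPM with a log2 fold of 0.71, and was called higher under total-count scaling (1.29). The gene value of Lss hides a difference in which transcripts were counted. The protein-coding Lss-201 (4667 bases, 22 exons) was listed at 0 counts in library 1 and held 1004 counts and 62.4% of the gene's TPM in library 2. Lss-204, annotated as a retained intron, held 67.3% in library 1 and 14.6% in library 2.

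Of the 8 enzymes from lanosterol to cholesterol, 2 were higher in library 2, 2 were lower and 4 were not called. Tm7sf2, a sterol C14 reductase, read 11.23 and 173.89 TPM (log2 fold 3.31), and shares 13.5% of its words with Vps51, which had 36 and 320.6 counts. Dhcr7, which makes the last reduction to cholesterol, read 11.72 and 71.87 TPM (log2 fold 1.79). After the GC curve neither was called, with log2 folds of 0.90 for Tm7sf2 and 0.98 for Dhcr7. The lanosterol demethylase Cyp51 read 99.70 and 85.73 TPM and was called lower (log2 fold -1.10). Msmo1, the C4 methyl oxidase, read 219.99 and 207.31 TPM and was called lower (log2 fold -1.12). The TPM of Cyp51 and Msmo1 were close, and neither was called under total-count scaling (-0.52 and -0.54) or after the GC curve (-0.23 and -0.17).

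The remaining 4 late enzymes kept similar or moderately different levels. Nsdhl, which removes the C4 carboxyl group, read 62.26 and 72.91 TPM (68 ± 7.5, SD, n = 2), with a log2 fold of -0.66 that became 0.21 after the GC curve. Hsd17b7, a 3-keto reductase of the same demethylation, read 22.01 and 24.24 TPM (log2 fold -0.79). Sc5d had a log2 fold of -0.93 that became 0.15 after the curve. Ebp, the sterol isomerase, read 63.83 and 188.05 TPM. Its log2 fold of 0.93 missed the fold threshold, but Ebp was called higher after the curve (1.11) and under total-count scaling (1.51). In Ebp, the 2-exon retained-intron transcript Ebp-202 (1034 bases) took 47.6% of the gene's TPM in library 1 and 4.90% in library 2. The coding Ebp-201 took 52.2% and 90.2%.

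Of the 4 genes of SREBP2 control, the transcription factor and its escort were higher in library 2, and the retention proteins were not called. Srebf2, the gene of SREBP2 (chromosome 15, 82147181 to 82205379, plus strand), read 1.40 and 18.20 TPM. Its log2 fold was 2.81, which turned to -0.09 after the GC curve. Scap, the gene of the escort protein, read 1.46 and 41.40 TPM, with a log2 fold of 3.94 before and 0.63 after the curve. Insig1 read 187.92 and 232.71 TPM and was not called (log2 fold -0.58). Insig2 was not called either (log2 fold -0.71). In both libraries, Insig1 and Insig2 were each higher in TPM than Srebf2 and Scap, but the gap was much wider in library 1. Srebf2 and Scap have GC contents of 57.9% and 59.1%, and Insig1 and Insig2 of 48.2% and 47.6%.

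Mouse Insig2 is known to be transcribed from alternative promoters, one of them liver-selective, and the transcript table divided it among several first exons. Insig2-201 held 43.9% of the gene's TPM in library 1 and 41.4% in library 2. Insig2-202 and Insig2-209, which start at or near 121332589, upstream of the start of Insig2-201 at 121328024, together held 24.7% and 51.1%. Insig2-206, a 334-base retained-intron transcript, held 30.9% and 3.93%. Insig2-202 and Insig2-201 have coding sequence of the same length, 675 bases. Insig2-209 is 204 bases long and its share rests on 30.9 and 43.9 counts. The RefSeq promoters (GRCm38.p6, 250 bases before to 50 after the start) of Insig2-201 and Insig2-202 are printed 5′ to 3′ because the transcripts at these starts differ in share. Capitals mark CCAAT and GGGCGG on either strand. The first window is 57% G and C with a single GGGCGG match on the opposite strand, and the second is 46% G and C with CCAAT matches on both strands.
Insig2-201 start (chr1:121327975-121328274, minus strand): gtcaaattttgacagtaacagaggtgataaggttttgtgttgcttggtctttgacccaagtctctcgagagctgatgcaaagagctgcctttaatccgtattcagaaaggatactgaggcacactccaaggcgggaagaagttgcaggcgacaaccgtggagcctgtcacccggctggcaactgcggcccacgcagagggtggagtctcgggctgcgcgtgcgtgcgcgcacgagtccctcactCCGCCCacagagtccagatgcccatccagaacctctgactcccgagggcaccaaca
Insig2-202 start (chr1:121332540-121332839, minus strand): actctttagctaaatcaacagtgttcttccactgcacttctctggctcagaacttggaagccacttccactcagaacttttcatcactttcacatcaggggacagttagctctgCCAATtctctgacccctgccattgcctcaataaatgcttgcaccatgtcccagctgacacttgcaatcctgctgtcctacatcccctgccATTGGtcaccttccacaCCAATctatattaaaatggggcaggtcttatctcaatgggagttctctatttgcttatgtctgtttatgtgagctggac

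Promoters of 24 of the 31 genes were matched, with 30 windows. CCAAT, the core letters of the NF-Y box, occurred on either strand in 20 of the 30 windows, and in 37.4% of 32851 RefSeq promoters of the same length. GGGCGG, an Sp1-type GC box, occurred in 25 of the 30, and in 35.7% of all promoters. TCACNCCAC, a form of the sterol regulatory element that SREBP binds, occurred in the promoter of Hmgcs1 and in 1.24% of all promoters. No matches overlapped in the printed windows, and a match describes letters only. Hmgcs1 is printed because it was the sole match for the sterol element, with all 3 motifs in capitals.
Hmgcs1 promoter (chr13:119690101-119690400, plus strand): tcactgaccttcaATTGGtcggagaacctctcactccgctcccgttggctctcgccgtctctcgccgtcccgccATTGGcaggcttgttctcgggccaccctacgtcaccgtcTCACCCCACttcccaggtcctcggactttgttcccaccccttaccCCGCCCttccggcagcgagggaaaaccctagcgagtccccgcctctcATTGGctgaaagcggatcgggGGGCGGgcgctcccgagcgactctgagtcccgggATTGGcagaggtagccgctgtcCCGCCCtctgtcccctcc

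Both uptake receptors were higher in library 2. Lrp1, a very large endocytic receptor for lipoprotein remnants (chromosome 10, 127538161 to 127621148, minus strand), had 463 and 13230 counts, or 11.69 and 229.74 TPM. Its log2 fold was 4.51 (95% counting interval 4.38 to 4.65) and 1.78 after the GC curve. Most of that TPM belonged to a short transcript. Lrp1-208, a 763-base retained-intron transcript, held 88.9% of the gene's TPM in library 1 and 63.7% in library 2. The full-length Lrp1-201 (14888 bases, 89 exons) read 0.92 and 51.5 TPM, although it held 66.8% and 88.2% of the gene's counts.

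Scarb1, the receptor for high-density lipoprotein known as SR-BI (chromosome 5, 125277087 to 125341094, minus strand), read 13.50 and 130.93 TPM. Its log2 fold was 2.59, and 0.82 after the GC curve. Scarb1-201 held 50.6% and 68.1% of the gene's TPM. Scarb1-202, the SR-BII form, was listed at 0 in library 1 and held 1134 counts and 25.8% of the TPM in library 2. The 2 forms differ in the exon printed below, which Scarb1-202 skips. It is coding, 129 bases long, and ends in the stop codon of Scarb1-201, shown in capitals, so skipping it replaces the end of the receptor that faces the cytoplasm.
Scarb1 exon (chr5:125281105-125281233, minus strand): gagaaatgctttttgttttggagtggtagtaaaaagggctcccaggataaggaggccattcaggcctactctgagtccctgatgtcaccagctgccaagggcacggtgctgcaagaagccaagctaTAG

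Of the 3 transport genes, 1 was called. Npc2, which binds cholesterol in the lysosome, read 7.73 and 29.14 TPM, with a log2 fold of 1.03 and a counting interval of 0.88 to 1.17 that spans the fold threshold. Npc1, the lysosomal membrane protein that receives cholesterol from Npc2, read 15.00 and 28.22 TPM. Its log2 fold was 0.02 (interval -0.07 to 0.12, adjusted p = 0.654, exact binomial test), and it became -0.0011 with DESeq2 size factors. The cytosolic sterol carrier Stard4 read 38.27 and 36.58 TPM (37.4 ± 1.2, SD, n = 2), with a log2 fold of -0.96. No gene of this group was called after the GC curve.

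All 4 genes of esterification and efflux were called, in both directions. Soat2, the acyltransferase of hepatocytes and enterocytes, read 2.74 and 22.97 TPM (log2 fold 2.17), and its fold was -0.03 after the GC curve. Soat1 had 127 and 73 counts and the same TPM in both libraries, and was called lower (log2 fold -1.12, interval -1.56 to -0.70). It was not called after the GC curve (-0.63) or under total-count scaling (-0.54). Soat2 was above Soat1 in TPM in both libraries, but in library 1 each gene had 127 counts. Their deposited TPM intervals overlapped there, at 2.23 to 3.16 for Soat2 and 1.24 to 2.66 for Soat1. The printed TPM of Soat1 lay below its own interval in both libraries. Lcat (chromosome 8, 105939551 to 105943382, minus strand) read 41.71 and 405.75 TPM (log2 fold 2.39, and 0.40 after the curve). Abca1, the transporter that loads cholesterol onto apolipoprotein A-I (chromosome 4, 53030787 to 53159895, minus strand), had 6741 and 3244 counts, or 29.35 and 20.87 TPM. Its log2 fold of -1.38 became -1.13 after the GC curve and -0.80 under total-count scaling, where it was not called.

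**Figure D3:**
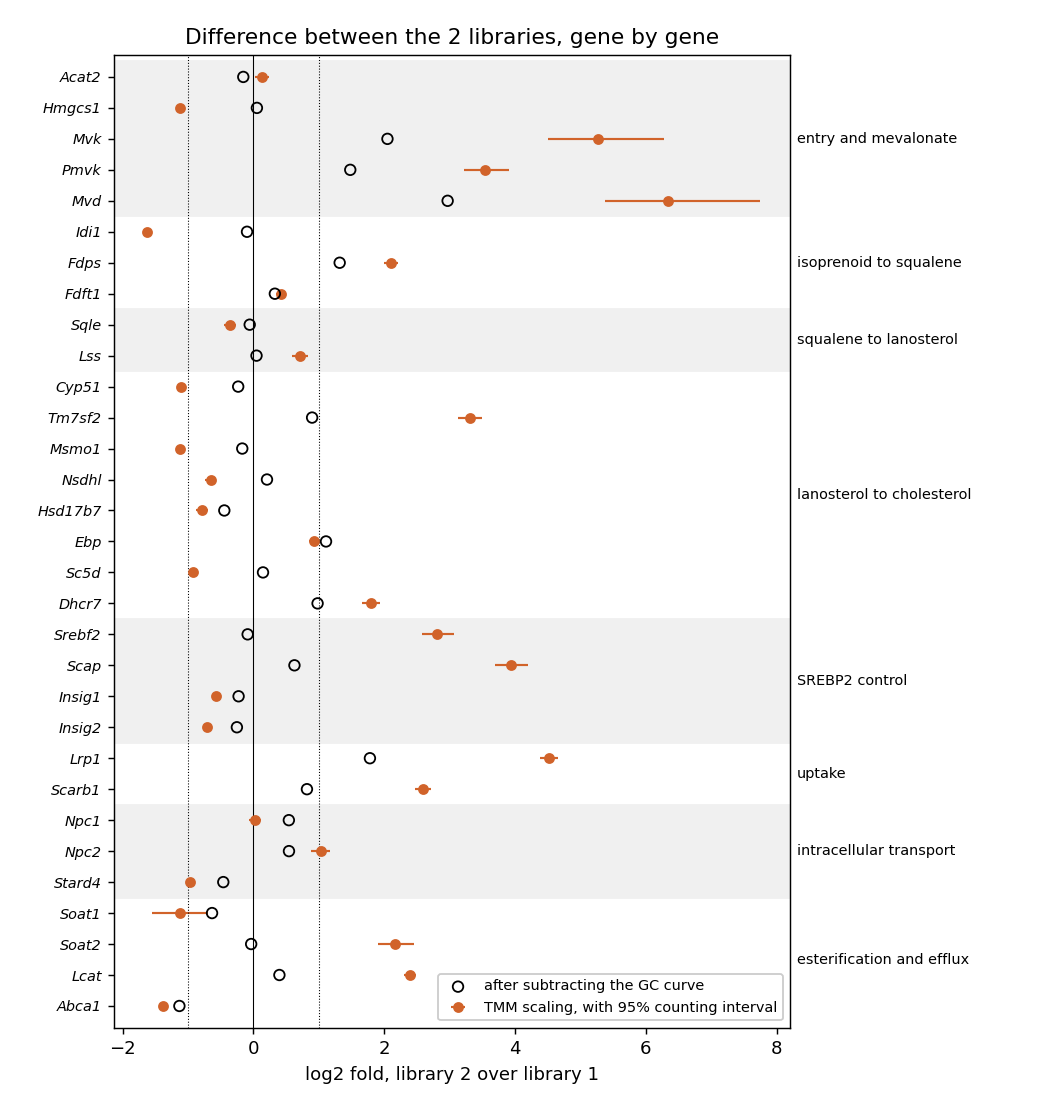
Log2 fold of library 2 over library 1 (x axis) for the 31 genes (y axis, in pathway order), after TMM scaling with the 95% counting interval (filled circles and bars) and after subtracting the GC curve (open circles), with dotted lines at 1 in either direction. Filled circles run from -1.62 for Idi1 to 6.33 for Mvd, and open circles from -1.13 for Abca1 to 2.97 for Mvd.

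The deposited credible intervals of TPM did not overlap between the libraries for most of the genes. The interval of library 2 lay above that of library 1 for 21 genes and below it for 6, namely Cyp51, Abca1, Msmo1, Sc5d, Idi1 and Hmgcs1. The intervals overlapped for Insig2, Stard4, Soat1 and Hsd17b7. None of these counts was made over all genes, so none is a result about this pathway. The median deposited level of nuclear protein-coding genes was itself higher in library 2, as given above. The deposited intervals belong to a second estimate in the tables, and the printed TPM lay outside its own interval for 10 genes in library 1 and 21 in library 2. The level of the intervals is not given in the sources used here.

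Transcript shares could be compared for 22 of the 31 genes, those with 2 or more annotated transcripts that reached a mean of 1 TPM and were above 0 in each library. The leading transcript differed between the libraries in 3 of the 22, against 32.6% of 7854 genes under the same filter. These were Pmvk, Lss and Mvk. Pmvk-203 led in library 1 with 78.3% and held 1.64% in library 2, where Pmvk-201 held 98.4%, on 76 and 1118 counts of the gene. Mvk-206 led in library 1 with 64.5% of a gene that had 12 counts there, and Mvk-201 led in library 2 with 66.7%. A share moved by at least 20 points in 9 of the 22, against 50.8% of the 7854 genes. The 9 were Pmvk, Lss, Mvk, Tm7sf2, Ebp, Insig2, Scarb1, Lrp1 and Soat1. In Soat1 the moving share of 22.2% rested on 1.02 counts. Tm7sf2-201, the 10-exon coding form, held 38.7% in library 1 and 85.5% in library 2. Both counts of the 31 genes lie below the share over all genes, and no test was made of that.

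Among the 10 genes of highest mean TPM, none changed its leading transcript between the libraries. The lowest leading shares were the 43.9% and 41.4% of Insig2-201. Sc5d-201 held 67.1% and 73.6% of its gene's TPM, with Sc5d-202 holding the rest. Msmo1-201 held 98.1% and 78.3%, and Idi1-201 held 98.7% and 97.4%. Hmgcs1, Insig1, Lcat and Fdps have 1 transcript in the tables. Transcripts annotated as not coding took a larger share in library 1 in 13 of 20 genes that have one, a smaller share in 4 and an equal share in 3. The median of that share over the 20 genes went the other way, at 1.30% in library 1 and 2.54% in library 2, and Msmo1 (1.51% and 17.1%) and Soat1 (0% and 22.2%) had the larger share in library 2. Over all nuclear protein-coding genes with such a transcript, 52.0% had the larger share in library 1.

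**Figure D4:**
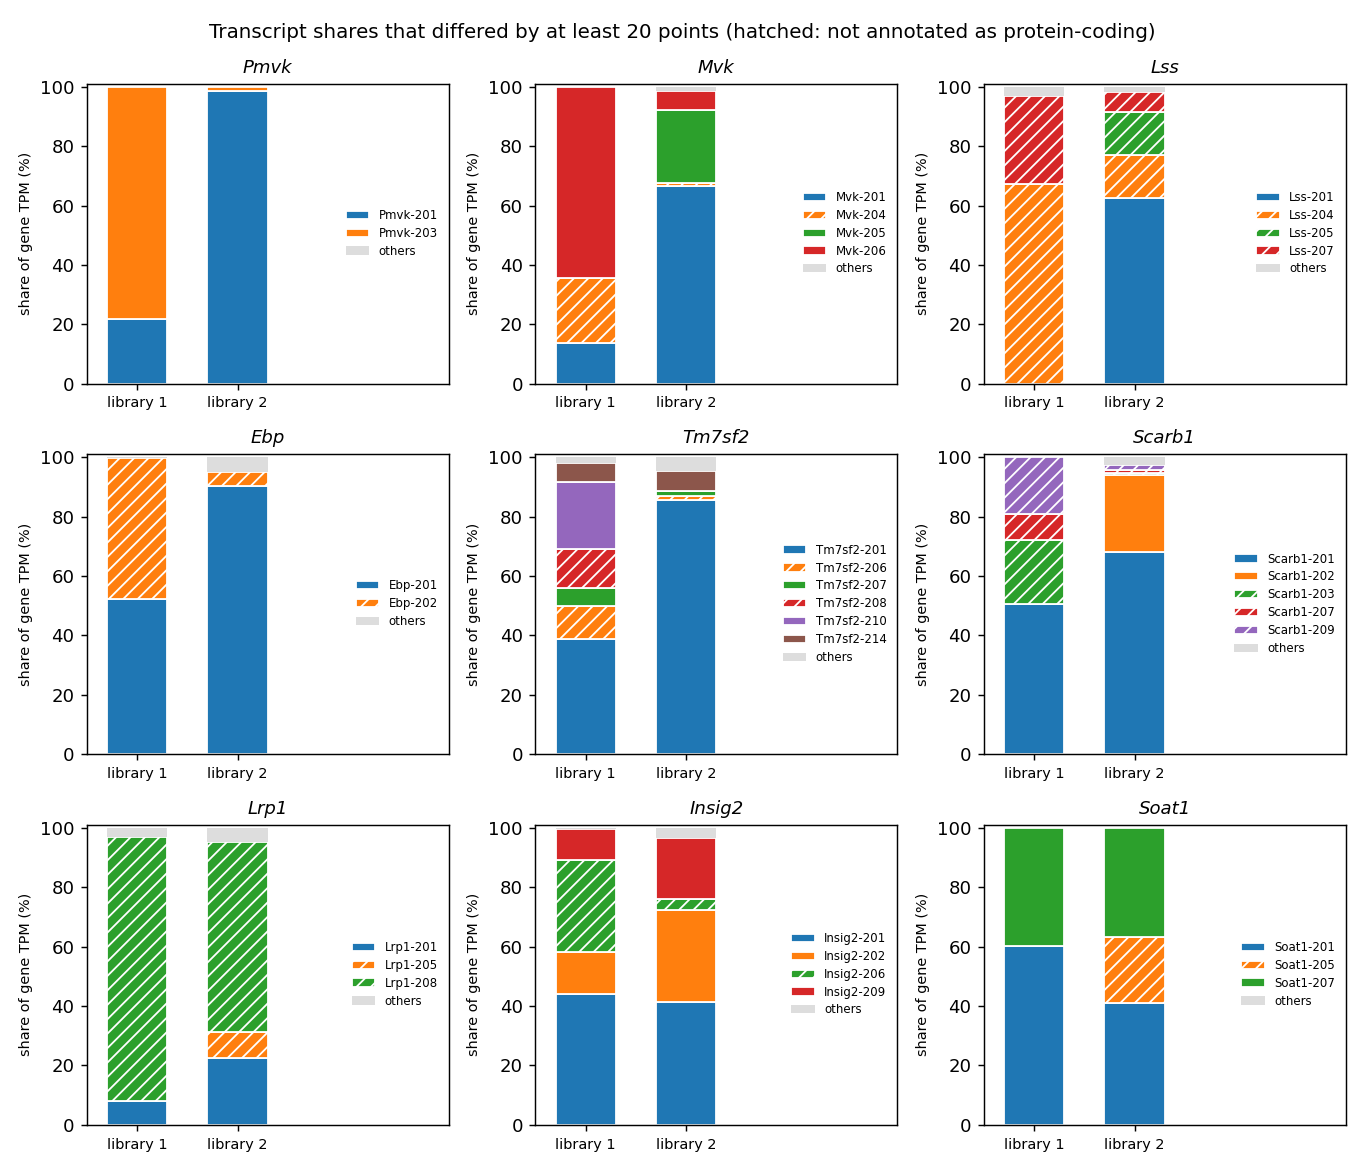
Share of the gene's TPM in percent (y axis) held by each transcript in library 1 and library 2 (bars) for the 9 genes with a share that differed by at least 20 points, with transcripts under 5% in both libraries grouped as others and hatching for transcripts not annotated as coding. Hatched parts are larger in library 1 for Lss, Ebp, Scarb1, Insig2, Tm7sf2, Mvk and Lrp1 and in library 2 for Soat1. Pmvk has no hatched part, and Lrp1 is mostly hatched in both libraries.

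Of 42 other genes of the pathway that were tested, 13 were higher in library 2 and 10 lower, beside the 32.6% and 23.6% of all genes given above, and their median log2 fold was 0.37. Of 5 genes for acetyl-CoA supply and sterol side steps, 1 was higher and none lower. That was the citrate carrier Slc25a1, with 23.08 and 138.36 TPM. Erg28, a scaffold of the C4 demethylation enzymes, had the highest mean of them, at 110.67 and 98.06 TPM, although Slc25a1 and Acss2 (126.74 TPM) were higher in library 2. Of 10 genes of the isoprenoid branches, 2 were higher and 4 lower. Fntb, a farnesyltransferase subunit, had the largest fold upward (1.87, from 0.40 to 1.63 TPM) and Pggt1b, a subunit of a related prenylation enzyme, the largest downward (-1.61, from 4.93 to 2.98 TPM). Fnta, a subunit of both enzymes, had the highest mean of the branch genes, at 15.88 and 20.10 TPM, although Nus1 was higher in library 1 (21.32 TPM) and Coq2 in library 2 (26.69 TPM).

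Of 9 genes of SREBP processing and sterol-regulated turnover, 4 were higher and 3 lower. Srebf1, the gene of SREBP1, read 3.29 and 96.25 TPM, with a log2 fold of 4.68 and a GC content of 59.8%. The proteases that cleave SREBPs went apart, with Mbtps1 at 4.56 and 19.63 TPM (log2 fold 1.22) and Mbtps2 at 4.64 and 2.56 TPM (log2 fold -1.70). Of 12 tested genes of uptake and intracellular transport, 3 were higher and 3 lower. Lipa, the lysosomal lipase that frees cholesterol from esters, was the highest of them at 110.71 and 137.88 TPM and was not called. Stard3, a sterol carrier of late endosomes, had the largest fold upward (3.56, from 0.42 to 11.21 TPM), and Gramd1c the largest downward (-1.32, from 25.57 to 18.75 TPM). Of 6 genes of efflux and the liver X receptors, 3 were higher and none lower. They were Nr1h2 (0.76 and 25.22 TPM), Nr1h3 (1.75 and 73.21 TPM) and Pltp (1.37 and 29.12 TPM). The sterol exporter gene Abcg5 read 38.16 and 70.18 TPM and was not called.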

How the data were processed

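Polyadenylated RNA from 1 mouse liver was measured in 2 technical libraries, which form 1 group. The authors deposited expected counts, which are estimated counts per gene and transcript and are not normalised. They also deposited TPM, isoform shares in percent of the gene's TPM, and credible bounds, per the file headers. Per the file descriptions, the values rest on mm10 with annotation M4. How reads were aligned, quantified and assigned to a strand is not given in the sources used here, so reads of overlapping genes on opposite strands may not be told apart. The members and lists were chosen with earlier results of these data known. Symbols, coordinates, transcript types and GC content came from GENCODE M21 on GRCm38 (42462 of 43346 genes had a symbol, and 126 of the 140 member transcripts had the same length), and promoters from RefSeq on GRCm38.p6. The symbols Faxdc2 and Si had no match.

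Counts were rounded, and the 12728 genes whose 2 counts summed to 20 or more were scaled with TMM in edgeR 4.0.16 (factors 0.818 and 1.22). With 1 library on each side edgeR's quasi-likelihood test has no residual degrees of freedom, so the 2 counts of a gene were compared with an exact binomial test (two-sided) and p-values were adjusted by Benjamini-Hochberg across every tested gene. Calls needed an adjusted p below 0.05 together with a log2 fold of 1 or more in either direction (prior count 0.5). Exact 95% intervals cover counting error only, and reads without molecular identifiers are not independent molecules. P-values compare the 2 counts with counting error alone, and hold no estimate of the spread between technical libraries or between animals. The GC curve was a loess fit with span 0.3 to tested genes with a GC value, without the mitochondrially encoded ones. Words shared between genes were 31 bases long. All 31 members are named. Other pathway genes were to be named by the highest mean TPM or the largest fold in each list, and isoforms by a changed leading transcript or a share moved by 20 points or by the level of the gene. Nr1h3, Pltp, Mbtps1 and the printed exon windows were chosen after their values were seen, and 1 gene under the rule is not reported here. Calculations used Python 3.11.15, scipy 1.17.1 and R 4.3.3, and the comparison was tested on simulated counts. Alternatives were DESeq2 1.42.0 size factors, scaling to total or nuclear protein-coding counts, other count minimums, a stricter fold, the GC curve, other pseudocounts and TPM minimums, and leaving out each library.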

Additional observations from a re-analysis of the deposited data

How the results depend on the processing

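Subtracting the GC curve left 7 of the 31 genes called, 6 of them higher and 1 lower, and a median log2 fold of 0.15. It turned the sign of Acat2 (-0.16), Hmgcs1 (0.053), Nsdhl (0.21), Sc5d (0.15), Srebf2 (-0.088) and Soat2 (-0.035). Total-count scaling left 1 gene lower, Idi1, gave a median of 0.99 and turned Sqle to 0.22. Scaling to the nuclear protein-coding total gave a median of 0.53, and the ratio of TPM gave 1.30. DESeq2 size factors turned Npc1 to -0.0011. A log2 fold of at least 2 left 11 genes higher and 0 lower, beside 2597 higher and 235 lower of all 12728 tested genes. A share moved by 30 points or more in 5 of 22 genes, beside 2991 of 7854 genes under the same filter. Leaving out each library in turn gave 29 to 31 detected genes and a median level of 4.81 to 6.17 on the log2 scale. The differing scalings and the curve change the folds by construction, and the cause of the library difference was not tested. Mvk and Mvd rest on 12 and 7 counts in library 1, so their folds carry the widest counting intervals. No paired analysis was possible because both libraries belong to 1 group.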
